A study of Caenorhabditis elegans with 2 samples.

Results

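The 36 genes carried by the mitochondrial genome (mtDNA) of the nematode Caenorhabditis elegans were set against chromatin immunoprecipitation (ChIP-seq) peak lists of the homeodomain protein CEH-19. Members were all genes annotated on chrM of the WBcel235 build, the assembly also named ce11, whatever their values. They are 36 of 46926 annotated genes: 12 code for proteins, 2 for ribosomal RNAs and 22 for transfer RNAs. All 36 lie on the plus strand of a circle of 13794 bp. The lists came from 1 group in biological replicates 3 and 2: late embryos, both sexes pooled, aged 5 hours and staged by egg bleaching. The worms were of strain OP739, with the unc-119(tm4063) mutation. They also carried the insertion wgIs739, which holds ceh-19::TY1::EGFP::3xFLAG together with a rescuing copy, unc-119(+). Chromatin of whole organisms was sheared by sonication into pieces of 200 to 800 bp, and an antibody against GFP pulled down the tagged protein with its DNA. CEH-19 was therefore caught as the tagged product of a transgene, in a mixture of all tissues. No precipitation from worms without the tag was analysed here, so the dependence of any mitochondrial peak on CEH-19 was not tested.

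Animal mitochondria keep a small circular chromosome in many copies per cell, apart from the nucleus. Its protein-coding genes give core subunits of respiratory complexes I, III, IV and V, and its rRNA and tRNA genes serve the ribosome inside the organelle. All other mitochondrial proteins, those that copy and transcribe the mtDNA included, come from nuclear genes. The genes stand almost end to end, and the main noncoding stretch is an AT-rich region, the counterpart of the control region of other animals. CEH-19 is known as a nuclear transcription factor of a few pharyngeal and other neurons. The number of mtDNA copies was not measured here.

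The lists held 29534 regions in replicate 3, 30000 in replicate 2 and 30000 in the list called on both libraries together, named pooled here. The replicate and pooled lists include background regions. The reproducible list, which the authors derived with the irreproducible discovery rate (IDR), held 1112 peaks. Each region had a signal value and a summit from the authors' peak caller, the position of its highest signal. The signal value is the region's own, with no normalization stated, and ranks given below are ranks by signal value within a list. Reproducible peaks carry the pooled signal value, which has no replicate error of its own. Neither read counts nor depth were analysed here.

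The sequences at the strongest mitochondrial summits are shown because the highest-ranked region of every list lay on the mtDNA. Each runs 50 bases to either side of the summit on the plus strand, from the RefSeq genome of WBcel235. Capitals mark TAAT, a core letter group of many homeodomain sites, or its reverse complement ATTA. The first 5 are the strongest mitochondrial peaks of the reproducible list, and the sixth is the strongest region of replicate 3.
ND5, reproducible rank 1, chrM:12404-12504: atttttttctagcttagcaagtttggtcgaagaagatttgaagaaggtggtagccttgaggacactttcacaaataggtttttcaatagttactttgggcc
COX1, reproducible rank 2, chrM:9079-9179: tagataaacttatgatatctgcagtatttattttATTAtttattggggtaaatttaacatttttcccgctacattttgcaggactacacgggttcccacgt
COX1, reproducible rank 4, chrM:8297-8397: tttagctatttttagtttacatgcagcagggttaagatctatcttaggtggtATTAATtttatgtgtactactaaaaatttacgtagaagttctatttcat
ND1, reproducible rank 7, chrM:2236-2336: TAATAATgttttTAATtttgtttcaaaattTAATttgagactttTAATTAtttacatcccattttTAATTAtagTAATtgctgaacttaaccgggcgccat
s-rRNA, reproducible rank 8, chrM:1098-1198: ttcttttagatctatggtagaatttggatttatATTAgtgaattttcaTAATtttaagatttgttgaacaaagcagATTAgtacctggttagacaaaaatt
ND4, replicate 3 rank 1, chrM:7556-7656: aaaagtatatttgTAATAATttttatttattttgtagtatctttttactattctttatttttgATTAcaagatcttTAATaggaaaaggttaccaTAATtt

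The window of the strongest peak, in ND5, held no capital. The windows ran from 16.8% G or C bases (GC) in ND4 to 37.6% in ND5, around a mean of 23.8% over the whole mtDNA.

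In the reproducible list, 21 peaks lay on the mtDNA and 1091 on the nuclear chromosomes. The mtDNA thus held 1.89% of the peaks on 0.0138% of the sequence, or 1.52 peaks per kb against 0.0109 per kb on the nuclear chromosomes, a ratio of 139.9. Over all called regions, background included, the ratio was 5.91 in replicate 3, 3.64 in replicate 2 and 5.58 in the pooled list. The 21 entries occupied 19 distinct intervals, since 2 intervals were listed with a pair of summits each. Together they covered 6288 bp, 45.6% of the molecule. Regions on the mtDNA numbered 24 in replicate 3, 15 in replicate 2 and 23 in the pooled list, and covered 47.4%, 42.1% and 48.7% of it.

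**Figure D1:**
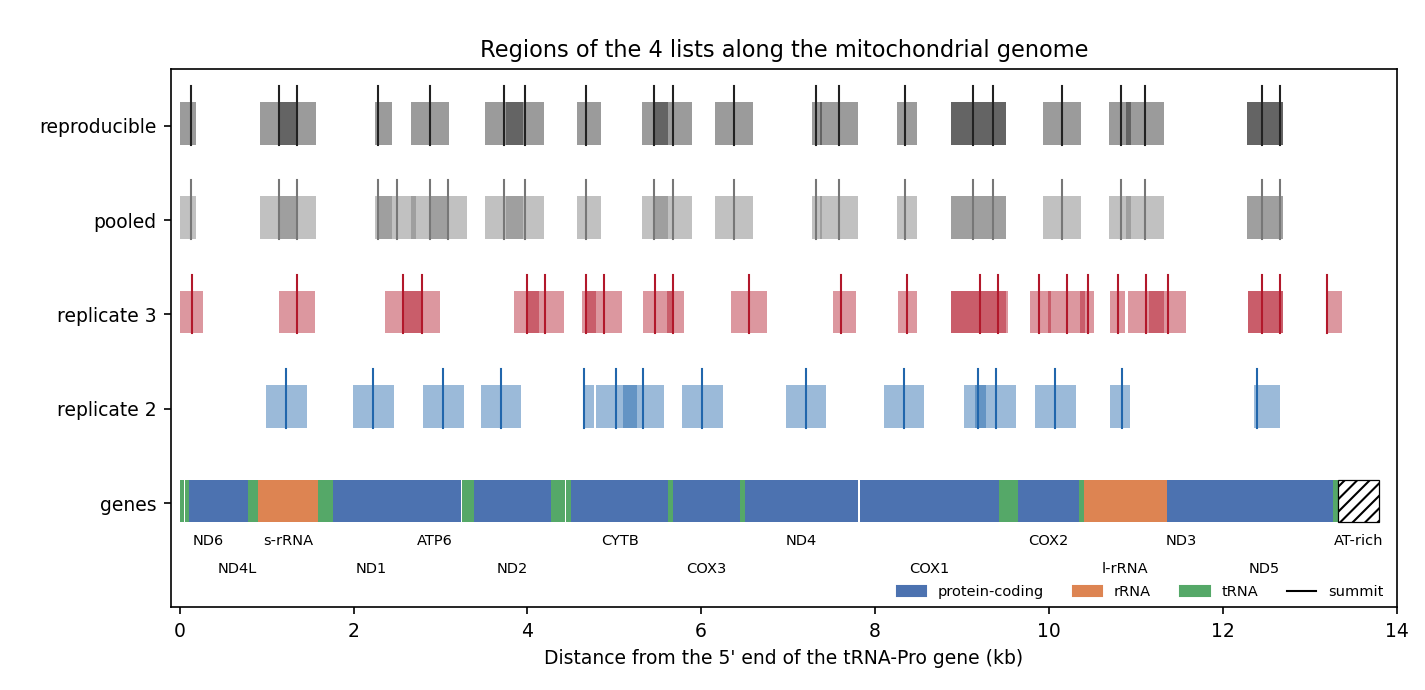
Regions of the reproducible list, the pooled list, replicate 3 and replicate 2 (rows, bars with a line at each summit) along the mtDNA, in kb from the 5' end of the tRNA-Pro gene, above the genes by class and the hatched AT-rich region. The 21 reproducible summits run from ND6 to ND5, and no list has a bar over the right-hand 421 bp.

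Mitochondrial regions took many of the highest ranks in each list. Their signal values had a median of 280 in replicate 3 (51.1 to 835), against 28.0 in its nuclear regions. In replicate 2 the mitochondrial median was 439 (70.6 to 810.3), against 22.3 in the nuclear regions. In the reproducible list the medians were 597 (164 to 1688) on the mtDNA and 152 on the nuclear chromosomes. Of the 10 highest ranks, mitochondrial regions took 6 in replicate 3, 8 in replicate 2 and 6 in the reproducible list. Replicate 2 had 8 mitochondrial regions above its strongest nuclear region, whose signal value was 369. Replicate 3 and the reproducible list each had 2 above their strongest nuclear regions, at 796 and 1144. The weakest mitochondrial region ranked 2614 in replicate 3, 457 in replicate 2 and 453 in the reproducible list.

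**Figure D2:**
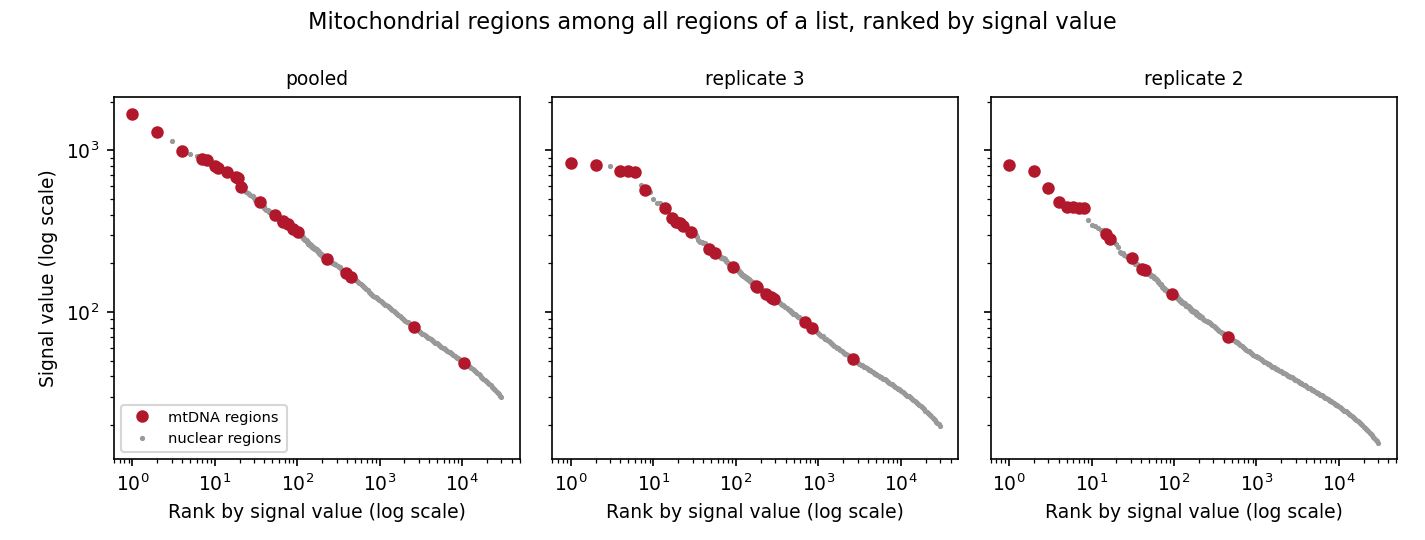
Signal value against rank (both on log scales) in the pooled list, replicate 3 and replicate 2, with mitochondrial regions as large red points and nuclear regions, thinned below the top, as small grey points. Rank 1 is mitochondrial in each panel, and replicate 2 has 8 mitochondrial regions above its strongest nuclear region.

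A reproducible peak overlapped 19 of the 36 mitochondrial genes by at least 1 base, where 2.71% of all annotated genes were overlapped. By class these were 10 of 12 protein-coding genes, where 2.84% of nuclear protein-coding genes were overlapped, and 2 of 2 rRNA genes. Among tRNA genes it was 7 of 22, against 29.6% of 612 nuclear tRNA genes, which is near that background. At least 50% of the gene was covered in 12 genes (1.38% of all annotated genes), and 13 held a summit (1.47% of all annotated genes). Overlap depends on gene length, peak width and shared neighbours, so these counts describe 1 molecule and not 36 independent genes.

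The replicate and pooled lists, with their background regions, were counted in the same way. Replicate 3 overlapped 24 of the 36, where it overlapped 32.7% of all annotated genes. Replicate 2 overlapped 16, with 30.7% of all annotated genes, and the pooled list overlapped 20, with 31.3%. Of the protein-coding genes, replicate 3 overlapped 11 of 12 (53.3% of nuclear ones) and replicate 2 overlapped 9 (49.1% of nuclear ones). Both replicates overlapped the same 13 genes: 9 protein-coding genes, both rRNA genes, tRNA-Cys and tRNA-Met. Of all annotated genes 20.9% were overlapped in both replicates. A further 11 mitochondrial genes were overlapped in replicate 3 alone (11.8% of all annotated genes) and 3 in replicate 2 alone (9.85%), namely tRNA-Lys, tRNA-Asp and tRNA-Gly. Neither replicate overlapped the other 9 (57.5% of all annotated genes). Those 9 were overlapped in no list: ND4L and the tRNA genes for Trp, Glu, Ser(UCN), Asn, Tyr, Leu(UUR), Ser(AGN) and Phe.

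**Figure D3:**
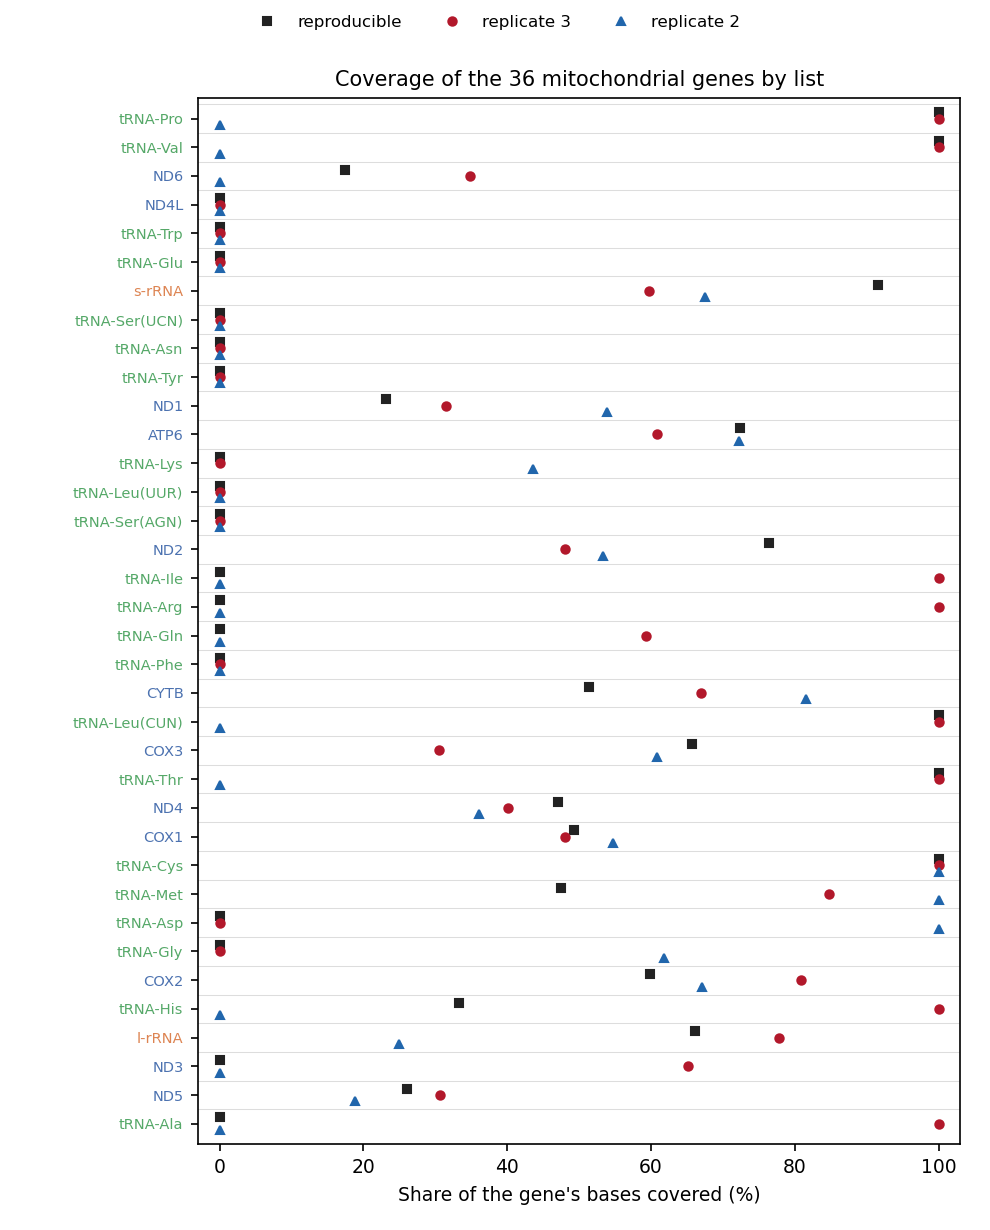
Share of each gene's bases covered by the regions of the reproducible list, replicate 3 and replicate 2, with the 36 genes in their order on the mtDNA and coloured as protein-coding (blue), rRNA (orange) or tRNA (green). The small ribosomal RNA gene reaches 91.5% in the reproducible list, whereas ND4L stands at 0 in all 3 lists.

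Complex I, the NADH dehydrogenase that passes electrons from NADH to ubiquinone, has 7 mitochondrially encoded subunits. Reproducible peaks overlapped 5 of the 7 genes and placed 8 summits in them. The strongest peak of the list lay in ND5 (chrM:11691-13272), a membrane subunit of the proton pump. Its signal value at the summit chrM:12454 was 1688 in the reproducible list, with 748 in replicate 3 at the same base (rank 5) and 810.3 in replicate 2 (rank 1) 54 bp away. The peak spanned chrM:12279-12691, and only 26.1% of this long gene was covered. The same interval held a weaker summit at chrM:12662 with a pooled signal value of 164, the lowest mitochondrial value of the list. Replicate 3 had 144 there, at 3 bp, and the nearest summit of replicate 2 was the strong one of this gene. ND5 was thus among the highest genes in both replicates at 1 place and differed at the other.

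ND4 (chrM:6506-7808), another membrane subunit of the pump, had reproducible summits at chrM:7325 with a signal value of 689 and at chrM:7582 with 313. Replicate 3 had its strongest region of all there, 835 at chrM:7606. Replicate 2 had 447 at chrM:7207 (rank 6), so the strongest ND4 summits of the replicates were 399 bp apart. Both libraries were high in ND4, at different places. Replicate 3 had a further ND4 summit of 355 at chrM:6552, where replicate 2 had no region.

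ND1 (chrM:1763-2635), the subunit that lines the ubiquinone pocket, had its reproducible summit at chrM:2286 with a signal value of 889 (rank 7). The ND1 summits were 363 at chrM:2569 in replicate 3 and 742 at chrM:2227 in replicate 2, its second strongest region. They lay 342 bp apart, and replicate 2 was the higher library. A second pooled region in ND1, with its summit at chrM:2502, had 81.3 and was not in the reproducible list.

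ND2 (chrM:3389-4269), a further membrane subunit, showed the widest gap between the replicates. Its highest summit was 814 at chrM:4002 in replicate 3 (rank 2) and 70.6 at chrM:3698 in replicate 2 (rank 457), a log2 ratio of 3.53 over a distance of 304 bp. The pooled values at the reproducible summits were 362 at chrM:3736 and 214 at chrM:3973. Replicate 2, weak here, had its lowest mitochondrial region in this gene, while replicate 3 had its second highest.

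ND6 (chrM:113-549), a small membrane subunit, had a reproducible summit at chrM:132 with a signal value of 325 (rank 90). Replicate 3 had 51.1 (rank 2614) at 11 bp, its lowest mitochondrial value. The nearest summit of replicate 2 was 1093 bp away, in the small ribosomal RNA gene. The peak in ND6 therefore ranked in the top 100 of the reproducible list with 1 weak region in replicate 3 and none in replicate 2. It ran over chrM:1-188 and ended at the first base of the linear sequence, although the molecule is a circle.

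ND4L (chrM:549-783) and ND3 (chrM:11356-11691), small membrane subunits, were the protein-coding genes that no reproducible peak touched. ND4L was at 0% in every list, inside a stretch of 665 bp that no region covered. Replicate 3 covered 65.2% of ND3 with a summit of 123 at chrM:11367 (rank 274). Replicate 2 covered none of ND3.

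CYTB (chrM:4504-5621) encodes cytochrome b, the only subunit of complex III that this molecule encodes. Its first reproducible summit, at chrM:4676 with a signal value of 774 (rank 11), had 380 in replicate 3 at 1 bp and 448 in replicate 2 at 26 bp. The log2 ratio of replicate 3 over replicate 2 was -0.24 there. The second, at chrM:5456 with 730, had 735 in replicate 3 at 10 bp and 217 in replicate 2 at 120 bp. The replicates were alike at the first place, and replicate 3 was well above replicate 2 at the second. Replicate 2 also had 186 at chrM:5026, and replicate 3 had 79.9 at chrM:4878.

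Complex IV, the cytochrome c oxidase that hands electrons to oxygen, has 3 mitochondrially encoded subunits, and reproducible peaks overlapped all 3 genes with 5 summits. COX1 (chrM:7827-9428), the catalytic core with its haem groups, held 3 of them. The strongest, at chrM:9129 with a signal value of 1298 (rank 2), had 749.5 in replicate 3 (rank 4) at 82 bp and 588 in replicate 2 (rank 3) at 57 bp. The next, at chrM:8347 with 988 (rank 4), had 568 in replicate 3 (rank 8) and 440.5 in replicate 2 (rank 7). The summit at chrM:9362 with 671 had 129 in replicate 3 and 182 in replicate 2. All 3 were matched within 100 bp in both replicates, with log2 ratios of replicate 3 over replicate 2 of 0.35, 0.37 and -0.49. Both libraries thus had strong regions at the same places for the first 2, and the third ranked 229 in replicate 3 and 44 in replicate 2.

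COX2 (chrM:9649-10348), the subunit that receives electrons from cytochrome c, had a reproducible summit at chrM:10148 with 479 (rank 35). The nearest summits gave 86.8 in replicate 3 at 57 bp and 303 in replicate 2 at 71 bp, a log2 ratio of -1.81. Replicate 3 had a stronger COX2 region, 231, at chrM:9889. COX3 (chrM:5678-6449), the third core subunit, had a summit at chrM:6374 with 365 (rank 67), but neither replicate had a summit within 100 bp of it. The nearest were 178 bp away in replicate 3 and 361 bp away in replicate 2. Within the gene, replicate 3 had 247 at chrM:5682 and replicate 2 had 129 at chrM:6013.

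ATP6 (chrM:2634-3235) encodes a proton-channel subunit of complex V, the ATP synthase. Its reproducible summit at chrM:2884 had 401 (rank 53), with 342 in replicate 3 at 92 bp and 281 in replicate 2 at 152 bp. Reproducible peaks covered 72.4% of the gene. A second pooled region in ATP6 at chrM:3089 had 48.4 (rank 10685) and was not in the reproducible list.

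The s-rRNA gene (chrM:898-1593), for the RNA of the small ribosomal subunit, was 91.5% covered by reproducible peaks, the highest share among the protein-coding and rRNA genes. Its summits at chrM:1148 and chrM:1349 had signal values of 870 (rank 8) and 597 (rank 21). The only s-rRNA summit was 437 at chrM:1346 in replicate 3 and 479 at chrM:1225 in replicate 2. The replicates were 121 bp apart there and close in signal value, with a log2 ratio of -0.13.

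The l-rRNA gene (chrM:10403-11354), for the RNA of the large subunit, was 66.1% covered. Its summit at chrM:10831 had 795 (rank 10), with 120 in replicate 3 at 32 bp and 439 in replicate 2 at 14 bp, a log2 ratio of -1.87. The summit at chrM:11105 had 348, with 190.3 in replicate 3 at 18 bp and none in replicate 2 within 100 bp. The positions were shared at the first summit, and the signal value was lower in replicate 3.

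Transfer RNAs carry the amino acids to the mitochondrial ribosome, and each of their genes is 52 to 62 bases long, shorter than any peak. Only tRNA-Leu(CUN) (chrM:5621-5676) held a reproducible summit, at chrM:5673 with 176 (rank 385). Replicate 3 had 247 at 9 bp from it, and the nearest summit of replicate 2 was 337 bp away. The tRNA genes for Pro, Val, Leu(CUN), Thr and Cys were wholly inside reproducible peaks. The genes tRNA-Met and tRNA-His were covered to 47.5% and 33.3%. By sequence class, reproducible peaks covered 26.4% of tRNA bases, 45.1% of protein-coding bases and 76.8% of rRNA bases. This order held in neither replicate: replicate 3 covered 48.1% of tRNA, 45.6% of protein-coding and 70.2% of rRNA bases, and replicate 2 covered 18.8%, 46.7% and 43.0% of these classes. The l-rRNA gene, at 77.8% in replicate 3 and 25% in replicate 2, differed most between the libraries among the rRNA genes. No tRNA gene held a summit in replicate 3 or in replicate 2. In replicate 3 regions touched 11 of the 22 (64.7% of nuclear tRNA genes) and in replicate 2 they touched 5 (60.5% of nuclear tRNA genes).

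**Figure D4:**
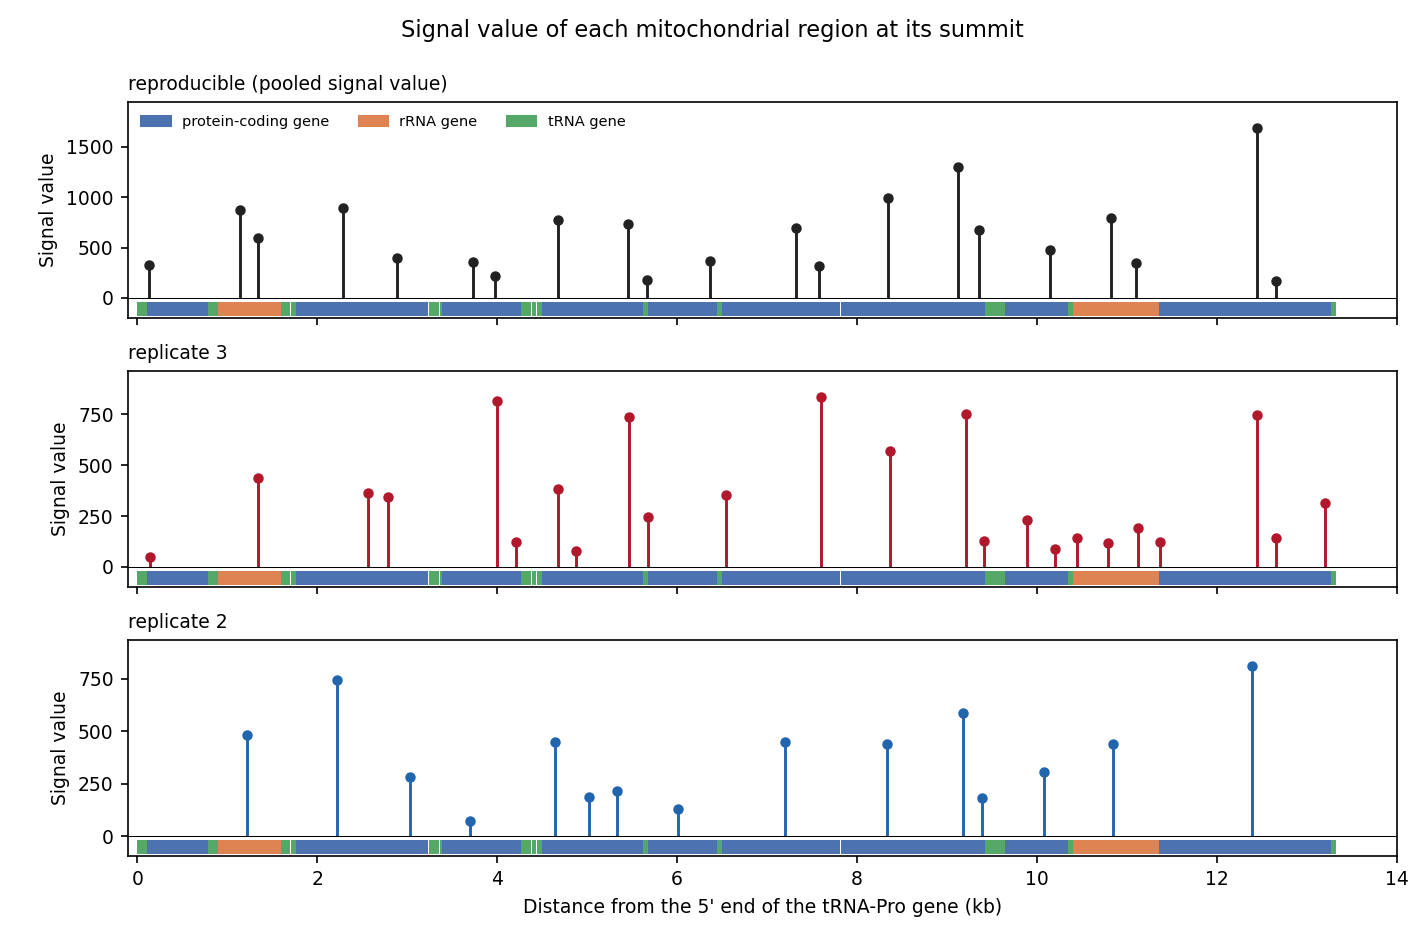
Signal value at each mitochondrial summit in the reproducible list, replicate 3 and replicate 2 (panels with separate vertical scales), along the mtDNA in kb from the 5' end of the tRNA-Pro gene, with genes as coloured bars. Summits in ND5 and COX1 stand high in all panels, while the highest ND2 summit reaches 814 in replicate 3 and 70.6 in replicate 2.

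Across genes, 11 of the 36 held a summit in both replicates: 9 protein-coding and 2 rRNA genes. The share was 13.9% of all annotated genes and 28.5% of nuclear protein-coding genes. The highest summit of the gene was higher in replicate 3 in 6 of them and in replicate 2 in 5. The log2 ratio of replicate 3 over replicate 2 had a median of 0.28 (SD 1.27, -1.21 to 3.53). ND2 had the highest ratio and the next was 0.94 in COX3, and the highest summits of a gene could lie at different places. The SD, a factor of 2.42, is a spread over genes of 1 molecule in 1 pair of libraries, with ND2 in it. It is not an error of any gene's signal value. Each gene has only 1 pair of values, so an order of the genes by signal value is uncertain.

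The replicates covered about equal parts of the molecule but not the same bases. Both covered 3101 bp. That is 47.4% of the bases covered in replicate 3, where replicate 2 covered 42.1% of the whole mtDNA. It is 53.4% of the bases covered in replicate 2, where replicate 3 covered 47.4% of the whole mtDNA. The shared parts were thus only a little above the shares of the whole molecule. A further 3443 bp were covered in replicate 3 alone and 2711 bp in replicate 2 alone. All 4 lists shared 2740 bp, 19.9% of the mtDNA, and 4175 bp, 30.3%, were covered in none.

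Of the 21 reproducible mitochondrial peaks, 16 had a replicate 3 summit within 100 bp and 10 had a replicate 2 summit. Both held for 7 peaks (33.3%, exact Clopper-Pearson 95% interval 14.6 to 57.0%), against 1004 of 1091 nuclear peaks (92.0%, 90.3 to 93.6%). The 7 lay in COX1 (3 peaks), CYTB, COX2, the l-rRNA gene and ND5. Among the 432 nuclear peaks that ranked at or above the weakest mitochondrial peak, a comparison chosen after the values were seen, 410 (94.9%) were matched in both. The intervals cover counting error only, and peaks of 1 molecule in 1 pair of libraries are not independent, so no test was run. The reproducible peaks were called on both libraries together, so a nearby summit in a replicate is partly built in. No share for random positions on the mtDNA is given.

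The distance from a reproducible summit to the nearest summit of replicate 3 had a median of 29 bp on the mtDNA and 14 bp on the nuclear chromosomes. For replicate 2 the medians were 118 bp on the mtDNA and 26 bp on the nuclear chromosomes. When overlap of the intervals by at least 1 base was counted instead, 19 of the 21 mitochondrial peaks and 1083 of the 1091 nuclear peaks met a region of both replicates. Both libraries thus had regions near almost all of these peaks. By the median, summits were farther apart on the mtDNA than on nuclear chromosomes. Regions covered 47.4% of the mtDNA in replicate 3 and 42.1% in replicate 2, so an overlap of 1 base is easily met there. The 19 of 21 therefore say little about agreement of the replicates. Among the 1112 strongest regions of each replicate, 6 of 23 mitochondrial regions of replicate 3 had a summit of any replicate 2 region within 100 bp, against 906 of 1089 nuclear ones. In the other direction it was 6 of 15 mitochondrial regions of replicate 2, against 872 of 1097 nuclear ones.

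**Figure D5:**
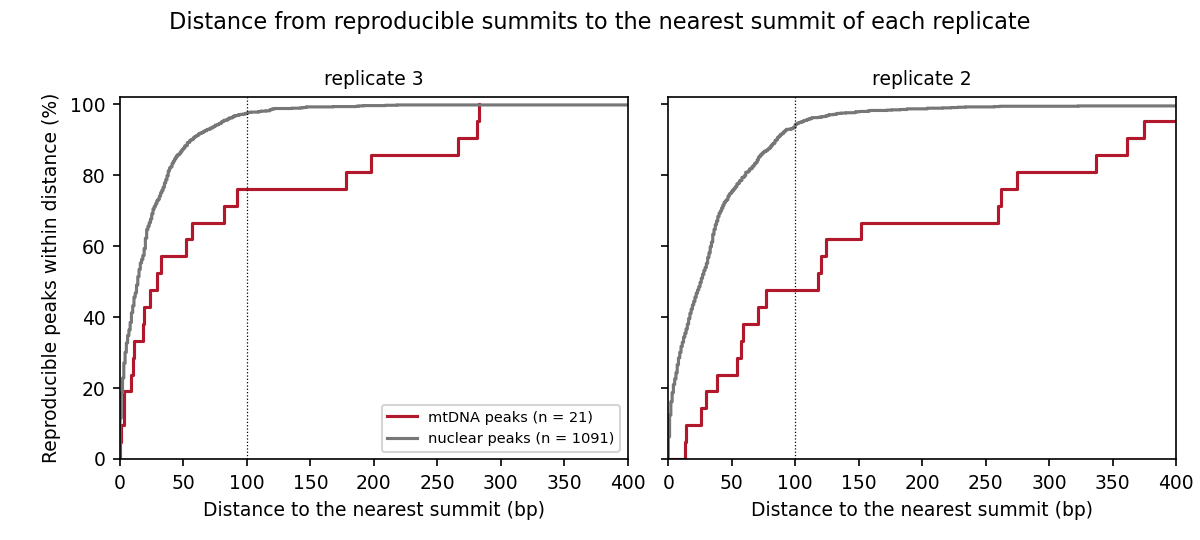
Cumulative share of reproducible peaks (vertical, %) within a given distance (horizontal, bp) of the nearest summit of replicate 3 and of replicate 2, for 21 mitochondrial and 1091 nuclear peaks; the dotted line marks 100 bp. The mitochondrial curves lie below the nuclear ones at that line in both panels, with 16 peaks within it in replicate 3 and 10 in replicate 2.

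Signal values of the libraries were set against each other at matched peaks. At the 7 mitochondrial peaks matched in both replicates, the median log2 ratio of replicate 3 over replicate 2 was -0.24 (SD 0.94), and 2 of 7 were higher in replicate 3. At the 1004 matched nuclear peaks it was 0.56 (SD 0.53), and 887 were higher in replicate 3. At the nuclear peaks as strong as the mitochondrial ones the median was 0.54 (SD 0.42, n = 410). The mitochondrial range of -1.87 to 0.37 overlapped the nuclear range of -1.42 to 2.74.

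The IDR step kept 21 of the 23 pooled mitochondrial regions (91.3%, exact interval 71.96 to 98.9%), where it kept 3.71% of all 30000 pooled regions. The 2 that it left out, in ND1 and ATP6, were the weakest. The pooled signal value at the edge of the list was 112.9 for the weakest peak inside and 112.8 for the strongest region outside. The list was thus the 1112 highest pooled regions by signal value, and the left-out regions at 81.3 and 48.4 lay below the cut. The kept shares therefore restate rank by signal value and do not measure agreement between the replicates. The widths differed as well. Most regions of a list shared its most common width, 436 bp in the reproducible list, and 11 of 21 mitochondrial peaks (52.4%) had another width. Among nuclear peaks 155 of 1091 (14.2%) did, and 151 of the 432 as strong as the mitochondrial ones (35.0%). Shares of the mtDNA covered carry these widths with them.

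Between the reproducible peaks lay 14 gaps of 220 to 1103 bp. The 3 longest were chrM:12692-13794 over the end of ND5, tRNA-Ala and the AT-rich region, chrM:11323-12278 over the end of the l-rRNA gene, ND3 and the start of ND5, and chrM:189-929 over most of ND6, ND4L, 2 tRNA genes and the start of the s-rRNA gene. When all lists were laid together, 12 stretches remained bare. The longest were 704 bp at chrM:11575-12278, 665 bp at chrM:265-929, 497 bp at chrM:12698-13194 and 425 bp at chrM:1567-1991. The next, 421 bp at chrM:13374-13794, lay wholly in the AT-rich region.

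The AT-rich region, the main noncoding part, spans the 466 bp of chrM:13329-13794 with 6.87% GC. No reproducible, pooled or replicate 2 region touched it. Replicate 3 covered 45 bp of it (9.66%) with the edge of a region at chrM:13195-13373, whose summit was in ND5 and whose signal value was 313 (rank 29). The rest of the AT-rich region had 4.04% GC. It holds the stretch below, shown because it is where the bare part of the lists meets repeated sequence. The first copy of the repeated unit, 43 bases, is in capitals on the plus strand.
AT-rich region, chrM:13406-13614: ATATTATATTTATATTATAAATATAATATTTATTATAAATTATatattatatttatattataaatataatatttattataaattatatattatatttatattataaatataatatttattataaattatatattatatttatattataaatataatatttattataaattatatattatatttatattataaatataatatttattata

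The stretch holds 4 whole copies of the unit and 37 bases of a further one, with no G or C. Of the 431 words of 36 bases in the AT-rich region, 190 (44.1%) occurred more than once in the genome, and no such word lay elsewhere on the mtDNA. With words of 50 bases it was 160 of 417 (38.4%), again with none elsewhere on the mtDNA. A short read from a repeated word cannot be placed uniquely, and the sources used here do not say how the authors treated such reads. The part of repeats or of low GC in the bare stretch was not tested.

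The other noncoding stretch lies between ND4 and COX1. RefSeq gives it 109 bp, chrM:7736-7844, with 19.3% GC, while the Ensembl genes leave 18 bp. It is shown because a reproducible peak ended inside it. Capitals mark the 64 bases under that peak, whose summit was in ND4 at chrM:7582.
ND4-COX1, chrM:7736-7844: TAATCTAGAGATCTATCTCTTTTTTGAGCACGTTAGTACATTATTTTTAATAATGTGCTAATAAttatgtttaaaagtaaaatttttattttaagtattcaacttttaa

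No summit of any list lay in this stretch, and its last 45 bases were bare in all lists.

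Base composition around the summits of the reproducible list and of replicate 3 was close to that of the molecule, while GC was higher in replicate 2. In windows of 101 bp at the 21 reproducible mitochondrial summits GC was 25.1% ± 6.08 (SD over windows), and the mean of all mitochondrial windows was 23.8% ± 7.06. Nuclear reproducible summits had 49.9% ± 7.79, where the nuclear chromosomes have 35.4% GC in all. Summits of replicate 3 on the mtDNA had 23.8% ± 5.88 GC (n = 24 windows) and those of replicate 2 had 30.2% ± 4.99 (n = 15), with ranges that overlapped (14.9 to 37.6% in replicate 3, 17.8 to 38.6% in replicate 2). Covered mitochondrial bases had 25.3% GC in the reproducible list, and uncovered ones, the AT-rich region among them, had 22.5%. In replicate 2 these were 27.3% and 21.2%, and in replicate 3 they were 23.9% and 23.6%.

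Short words were counted on both strands in the same windows. The homeodomain-type word TAATTG, or its variant with A as the last letter, both of which contain TAAT, was in 8 of 21 mitochondrial windows (38.1%), against 27.1% of all windows of that length on the mtDNA. Nuclear summits held it in 53 of 1091 windows (4.86%). TAAT alone was in 20 of 21 mitochondrial windows, against 95.7% of all mtDNA windows, and in 33.0% of nuclear summit windows. TAAACG was in 1 of 21, against 7.86% of mtDNA windows and 3.21% of nuclear summit windows. GAGAG was in none of the 21, against 2.83% of mtDNA windows, and in 42.1% of nuclear summit windows. The words were chosen with earlier results of these data known, and no share over all nuclear windows is given here. The mitochondrial and nuclear shares are thus no test of a difference. A match is a run of letters in an AT-rich molecule and not a shown site, and windows that overlap are not independent.

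The mtDNA is maintained and its complexes are completed by nuclear genes, so lists of those genes were set against the nuclear peaks. Of 163 nuclear genes of mitochondrial function, 12 (7.36%) had a reproducible summit within 1 kb of their 5' end, where 2.47% of all nuclear protein-coding genes did. With the pooled list and its background regions it was 93 (57.1%), where 41.5% of all nuclear protein-coding genes did. The strongest belonged to ears-2, which encodes a mitochondrial glutamyl-tRNA synthetase, at chrIV:390351-390645. Its signal value was 693 in the reproducible list (rank 16), 471 in replicate 3 (rank 11) and 219 in replicate 2 (rank 30), with the summit at -33 bp from the 5' end (negative is upstream). Of the 11 mitochondrial synthetases of the list, ears-2 was the only one with a reproducible peak.

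Respiratory complexes had 7 of the 12. The share over all nuclear protein-coding genes was 2.47%, and the counts by complex are small. Complex IV had 3 of its 7 listed nuclear genes, cox-5A, cox-5B and cox-6A, with signal values of 138, 191 and 196. They encode subunits that surround the mitochondrially encoded core. The cox-6A summit lay at -799 bp and had a small RNA gene within 200 bp. Complex V had 2 of 10, atp-3, a stalk subunit, at 127 and atp-1, the alpha subunit of the synthase head, at 125. Complex II, which has no mitochondrially encoded subunit, had sdha-1, its flavoprotein, at 124. Complex I had 1 of 35 (2.86%), near the share over all nuclear protein-coding genes. It was ndub-8, an accessory subunit, at 119, and complex III and cytochrome c had none of 9 and 2. These values lay on either side of the nuclear median of 152 and below the mitochondrial median of 597. In the replicates, ndub-8 had 39.3 in replicate 3 (rank 5794) and 87.4 in replicate 2 (rank 253). The other genes named here had regions in both replicates, at ranks from 212 to 1844.

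Mitochondrial ribosomal proteins had 3 of 70 (4.29%), where 2.47% of all nuclear protein-coding genes had a peak. They were mrpl-23 at 206, mrpl-15 at 162 and mrpl-39 at 120.2. In the replicates, mrpl-23 had 134 in replicate 3 (rank 217) and no region in replicate 2. For mrpl-15 it was 110 in replicate 3 (rank 371) and 46.8 in replicate 2 (rank 1493). For mrpl-39 it was 41.6 in replicate 3 (rank 4880) and 24.9 in replicate 2 (rank 11337). Among the 14 listed genes that maintain or express the mtDNA, mtss-1, for a mitochondrial single-stranded DNA binding protein, had 204 in the reproducible list. It had 122 in replicate 3 and 76.9 in replicate 2, at -220 bp. The other named genes of that list had no reproducible peak. The gene hmg-5, for an mtDNA packaging protein, had a pooled value of 43.0 (rank 14330), and polg-1, for the mtDNA polymerase, had 45.1 (rank 12802). The mitochondrial RNA polymerase gene rpom-1 had no pooled region and 20.6 in replicate 2. The summits assigned to sdha-1, cox-6A and mrpl-23 had a small RNA gene within 200 bp, and with such peaks left out 9 genes in place of 12 had a reproducible peak.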

How the data were processed

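The data were narrowPeak lists of 2 biological replicates of 1 group, on ce11. Per the text files deposited with them, regions were called on each library and on both together, with 1 control file, and the reproducible list derives from these by IDR. The IDR threshold, the tools for alignment and peak calling and their versions are not given in the sources used here. Each region's signal value and −log10 q-value are as the authors deposited them, with no normalization stated, and the summit is the deposited offset from the start. Read counts were not analysed, so the depth is unknown. The −log10 q-value was not used in a comparison. Replicates are separate samples per the labels, and their agreement is the only error available.

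Chromosome lengths of ce11 were checked against WBcel235. Genes came from the Ensembl annotation and gene names, the AT-rich region and sequences from RefSeq. All 36 mitochondrial genes matched, and 3 differ by more than 10 bp between the annotations (ND2, ND4 and COX1). Covered bases are those of the union of a list's intervals, summits were matched within 100 bp, and a nuclear peak was given to the nearest protein-coding 5' end within 1 kb. Gene counts use at least 1 base of overlap. Intervals of shares are exact (Clopper-Pearson, 95%) and cover counting error only. No tests were run, since there is 1 group. The functions were tested on simulated data. Members, gene lists and words were chosen with earlier results of these data known. The text names all 36 mitochondrial genes, each listed nuclear gene with a reproducible peak, and hmg-5, polg-1, rpom-1 and mtss-1. Alternatives fixed at the outset numbered 32, with 1 added after the values were seen (interval overlap). "Without replicate 2" means that the top 1112 regions of replicate 3 stood in for the reproducible list, and the reverse. Python 3.11.15, numpy 2.4.6, pandas 2.3.3, scipy 1.17.1 and matplotlib 3.10.9 were used.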

Additional observations from a re-analysis of the deposited data

How the results depend on the processing

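Requiring at least 50% of a gene to be covered gave 12 mitochondrial genes in place of 19, and taking 100 bp to each side of each summit gave 30.6% of the mtDNA covered in place of 45.6%. Peaks matched in both replicates numbered 3 with summits within 50 bp, 11 within 200 bp and 19 by overlap of the intervals by at least 1 base, in place of 7. Mean GC at the mitochondrial summits was 30.2% without replicate 3, in place of 25.1%. Without replicate 2 it was 23.8%, which is within the SD given below and is counted among the values that stayed. The stronger part of the reproducible peaks gave 6 nuclear genes of mitochondrial function in place of 12. The other 26 values computed under an alternative stayed within 1.5 times the count, within the interval of a share, or within an SD. Some of these could not move. All reproducible mitochondrial peaks ranked at 453 or better of 1112, so the stronger part of that list had to return the same mitochondrial values. The same holds for the pooled list, where the lowest mitochondrial rank was 10685 of 30000. The 26 are therefore no measure of robustness. The SD was 3.75 for the percent covered and 4.50 for GC percent, both between the same 2 replicates that were left out in turn. These limits are thus not independent of the values they judge. For the log2 ratio the SD was 0.94 over matched peaks. Without replicate 2, the mtDNA had 23 regions over 21 genes, and without replicate 3 it had 15 regions over 16 genes, in place of 21 regions over 19 genes. The cause of these shifts was not tested. No paired analysis was possible because there is 1 group. The matches between replicates, their ratio and the pooled share need both replicates and have no value without one.

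Limits are set by 1 pair of libraries, with no precipitation without the tag, no read counts and no measure of mtDNA copies. Regions with the most common width of a list fix part of any covered share.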
